A study of Mus musculus with 4 samples.

Results

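The genes described here are 34 genes of the endoplasmic reticulum (ER) chaperone and unfolded protein response system, chosen by a fixed list of symbols out of the 52636 genes of the deposited matrices. All 34 symbols were found. They were followed in mouse mammary epithelial cells of 4 single-cell libraries, and they fall into 15 folding genes, 7 degradation genes, 3 translocation genes, 3 stress sensors with Xbp1, the factor downstream of Ern1 (4 genes), and 5 genes of the Atf4 arm. The first 3 groups together are called the chaperone arm below, with 25 genes.

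The libraries cross 2 Esr1 genotypes, the estrogen receptor mutant Y541S and wild type (WT), with giredestrant, a drug that blocks that receptor and promotes its breakdown, or its vehicle. The groups are therefore Y541S giredestrant, Y541S vehicle, WT giredestrant and WT vehicle, with 1 library each. All mice were 6 months old and carried estradiol and progesterone pellets (E2 and P4 in the labels), so the vehicle groups were hormone-treated too, and giredestrant was dosed by mouth at 30 mg/kg daily for 4 days against MCT vehicle. EpCAM-positive cells were sorted from the glands, and transcript 3′ ends were counted as unique molecular identifiers (UMIs, 1 per captured molecule) by 10x Genomics chemistry (v3.1). How many animals went into a library, and whether the mutation was on both alleles, is not given in the labels, and the counts hold no sequence that could check the genotype. The source label names mature luminal cells, but cells with basal markers were present in every library.

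With 1 library per group no difference between groups has a replicate check, so no p-value is given. The 95% intervals in parentheses are exact counting intervals, which leave out differences between animals and preparations. "Higher" and "lower" describe these libraries.

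Proteins that enter the ER are folded there by chaperones, which bind exposed hydrophobic stretches or immature sugar chains, and by disulfide isomerases. When unfolded proteins build up, the membrane sensors Ern1 (IRE1), Atf6 and Eif2ak3 (PERK) start the unfolded protein response. Ern1 and Atf6 act through the transcription factors Xbp1 and cleaved Atf6 to raise chaperone and degradation genes, while Eif2ak3 slows translation and favours translation of Atf4, which is also reached through amino acid shortage. Mammary epithelium is a secretory tissue, and its cells carry a large ER in lactation.

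Cells were assigned by their summed UMIs of a few genes per 10,000 UMIs of the cell. Hormone-sensing cells had 10 or more of Esr1, Prlr, Areg and Foxa1, secretory cells 10 or more of Wfdc18, Csn3, Elf5 and Kit, and basal cells 20 or more of Acta2, Myh11, Mylk and Tagln. Hormone-sensing cells were split at 3 Krt14 UMIs per 10,000, Krt14 being a keratin of basal cells. These classes are ranges of a score, not types read from a clustering. Of 30062 barcodes 25950 passed the filters and 22852 met exactly 1 rule. The Krt14-low hormone-sensing class held 1499 cells in Y541S giredestrant, 2074 in Y541S vehicle, 1034 in WT giredestrant and 627 in WT vehicle, and the Krt14-high class held 980 in Y541S giredestrant against 22 in Y541S vehicle, 9 in WT giredestrant and 15 in WT vehicle. The Krt14-high cells were therefore compared only within the Y541S giredestrant library. In the hormone-sensing Krt14-low class the median score of the basal and secretory rules was 0 in each library. Cells within 20% of the hormone-sensing threshold made up 7.62% in Y541S giredestrant, 1.90% in Y541S vehicle, 1.35% in WT giredestrant and 7.23% in WT vehicle, as a share of those in the rule.

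Depth differed between the libraries. Krt14-low hormone-sensing cells had a median of 9260 UMIs in Y541S giredestrant, 25121 in Y541S vehicle, 29584 in WT giredestrant and 28914 in WT vehicle, so the WT pair was close in depth and the Y541S pair was not. Their share of the kept cells was 17.4% in Y541S giredestrant, 28.7% in Y541S vehicle, 34.1% in WT giredestrant and 8.85% in WT vehicle. From 10 to 29 cell barcodes were shared between any pair of libraries, at most 0.371% of the smaller library. The 5 hormone-sensing markers that the class rule did not use (Pgr, Cited1, Prom1, Krt8 and Krt18) were all at 1 CPM or more in the Krt14-low class, and summed to 4363 CPM in Y541S giredestrant, 9492 CPM in Y541S vehicle, 9483 CPM in WT giredestrant and 7974 CPM in WT vehicle. In secretory cells the same 5 summed to 5440 CPM in Y541S giredestrant and 5441.5 CPM in Y541S vehicle. The WT secretory sums were 5539 CPM with giredestrant and 5954 CPM with vehicle. In Y541S giredestrant the secretory sum was thus the higher one, so this sum does not mark hormone-sensing cells alone. Of 4 estrogen targets listed as a check of the treatment, 3 were lower past 1.5-fold in Y541S giredestrant (Wisp2, Ctsd and Pgr), with a median relative log2 over the 4 of -1.25, and all 4 in WT giredestrant, with a median of -4.61, beside 24.4% of all genes lower in Y541S and 22.1% in WT. Greb1, the fourth, stood at 79.4 CPM in Y541S giredestrant, 77.9 CPM in Y541S vehicle, 4.16 CPM in WT giredestrant and 261 CPM in WT vehicle cells. Ctsd stood at 271 CPM in Y541S giredestrant, 716 CPM in Y541S vehicle, 242 CPM in WT giredestrant and 1248 CPM in WT vehicle cells. The 10 basal markers, Krt14 and the genes of the basal rule among them, summed to 232 CPM in Y541S giredestrant, 40.9 CPM in Y541S vehicle, 33.1 CPM in WT giredestrant and 63.1 CPM in WT vehicle. The 6 fibroblast markers summed to 7.20 CPM in Y541S giredestrant, 136 CPM in Y541S vehicle, 25.8 CPM in WT giredestrant and 83.4 CPM in WT vehicle, with Col1a1 and Col1a2 at 0 in WT vehicle. The 7 macrophage or dendritic markers summed to 10.3 CPM in Y541S giredestrant, 7.06 CPM in Y541S vehicle, 34.4 CPM in WT giredestrant and 10.4 CPM in WT vehicle, with Ptprc at 0 in Y541S giredestrant. Plasma cells carry much ER, and the 6 B or plasma cell markers summed to 3.47 CPM in Y541S giredestrant, 0.55 CPM in Y541S vehicle, 0.73 CPM in WT giredestrant and 0.27 CPM in WT vehicle, with Ms4a1 and Ighm at 0 in Y541S giredestrant and Jchain, Mzb1 and Ighm at 0 in WT vehicle. The 5 endothelial markers summed to 24.6 CPM in Y541S giredestrant, 2.13 CPM in Y541S vehicle, 3.65 CPM in WT giredestrant and 2.88 CPM in WT vehicle, with Kdr at 0 in both giredestrant libraries and Cdh5, Kdr and Cldn5 at 0 in Y541S vehicle. The 3 T cell markers stayed at or under 0.28 CPM.

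In Krt14-low hormone-sensing cells many of the genes were lower with giredestrant in Y541S mice, and nearly all were in WT mice. Values are UMI counts scaled to a common total for each class and library (CPM), and a ratio is the log2 of giredestrant over vehicle minus the same for the median gene, which had itself moved by 0.34 in Y541S and 0.44 in WT. A member counted as higher or lower when this relative ratio passed 1.5-fold. Of 33 members with enough UMIs (20 or more over both libraries), 16 were lower and 0 higher in Y541S giredestrant, with a median relative log2 of -0.56, where 24.4% of all 16715 genes counted were lower and 23% higher. Of the genes at 20 or more CPM, 27.9% were lower and 12.2% higher. In WT mice 29 of 32 members were lower with giredestrant and 0 higher, with a median of -1.20, beside 22.1% of all 16072 genes lower and 22.2% higher, and 23.1% and 9.09% of the genes at 20 or more CPM. Without the median-gene shift the counts were 10 lower and 2 higher in Y541S and 18 lower and 1 higher in WT. Between the genotypes under vehicle, 3 of 33 members were lower in Y541S (Herpud1, Edem1 and Derl3) and 0 higher, with a median of -0.18, beside 11.4% lower and 11.7% higher over all genes and 6.31% and 2.98% over those at 20 or more CPM. Under giredestrant 12 of 32 were higher in Y541S than in WT and 2 lower, with a median of 0.38, beside 23.7% and 23.2% over all genes and 16% and 19.5% over those at 20 or more CPM. With TMM scaling, which trims genes of extreme ratio, these were 7 higher and 3 lower.

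**Figure D1:**
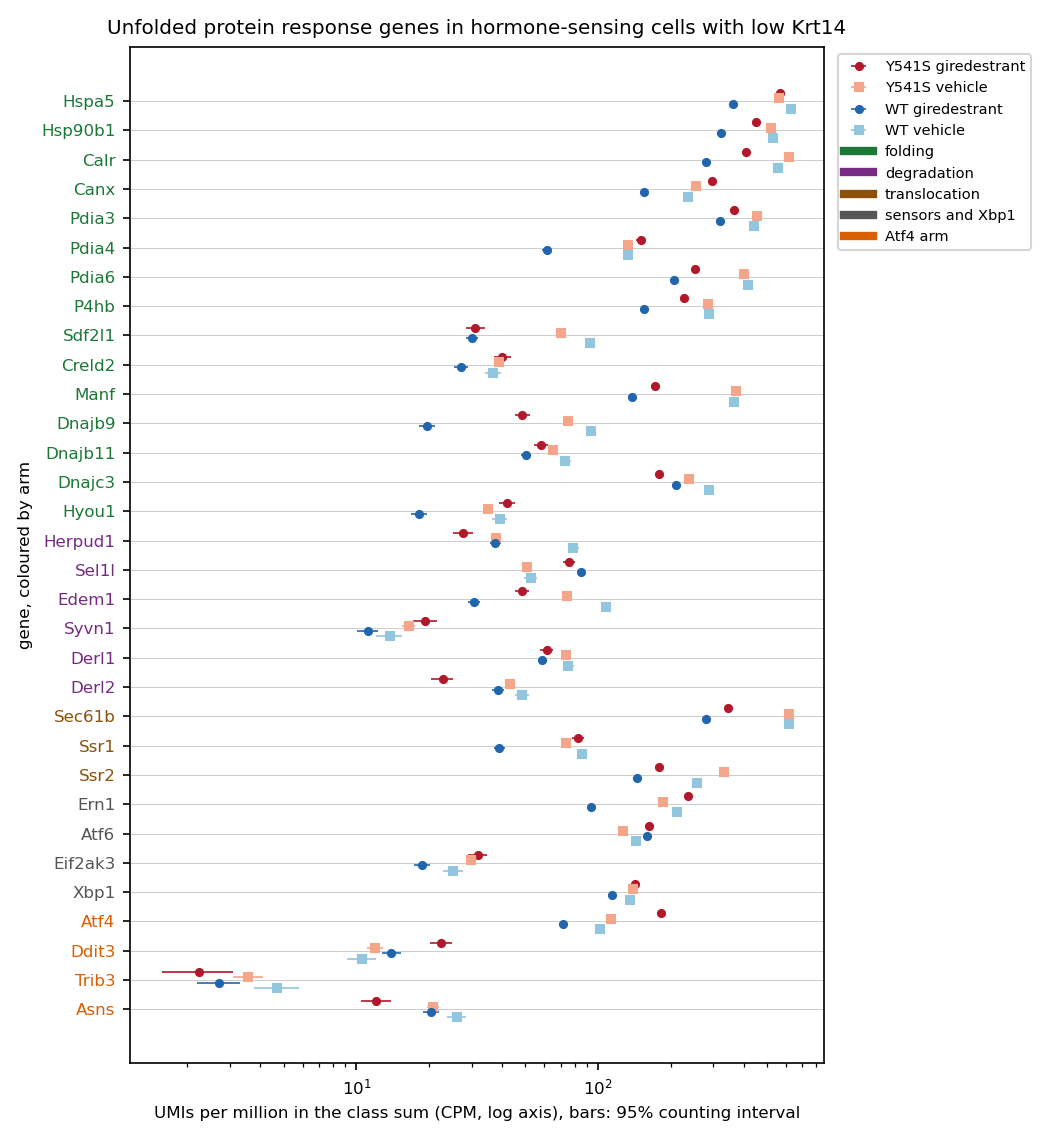
Level of each gene in Krt14-low hormone-sensing cells of the 4 libraries (CPM on a log axis, points, with 95% counting intervals as bars), grouped by role. Chac1 and Derl3 are left out because their levels lay under 1 CPM. For most folding genes the WT giredestrant point lies to the low side of the other 3; Hspa5 reads 566 CPM in Y541S giredestrant, 562 CPM in Y541S vehicle, 360.4 CPM in WT giredestrant and 626 CPM in WT vehicle.

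Because several of the chaperone genes are known to share an ER stress response element (ERSE) near their start, the 250 bases before the RefSeq start of each gene were searched (RefSeq promoters, GRCm38.p6), a table that held 29 of the 34 members. Manf, Hyou1, Derl1, Ssr2 and Atf6 had no entry. The full ERSE (CCAAT, 9 bases of any kind, then CCACG, on either strand) was found in 9 of 29 members (31.0%) and in 37 of 32851 promoters (0.113%). The matches are shown with 5 bases on each side, 5′ to 3′ on the gene's strand, and the capitals mark the match.
Hspa5 (chr2:34772020-34772048, + strand): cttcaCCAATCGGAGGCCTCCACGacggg
Hsp90b1, distal (chr10:86705633-86705661, - strand): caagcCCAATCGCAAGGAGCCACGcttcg
Hsp90b1, proximal (chr10:86705528-86705556, - strand): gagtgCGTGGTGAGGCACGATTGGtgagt
Calr (chr8:84847070-84847098, - strand): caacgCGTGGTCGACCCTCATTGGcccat
Canx (chr11:50325795-50325823, - strand): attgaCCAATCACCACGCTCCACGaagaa
Pdia6 (chr12:17266486-17266514, + strand): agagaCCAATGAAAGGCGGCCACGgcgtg
Creld2 (chr15:88819515-88819543, + strand): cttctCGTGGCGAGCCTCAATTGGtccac
Dnajc3 (chr14:118937822-118937850, + strand): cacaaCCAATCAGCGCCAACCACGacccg
Syvn1 (chr19:6046527-6046555, + strand): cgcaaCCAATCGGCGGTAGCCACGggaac
Derl3 (chr10:75893237-75893265, + strand): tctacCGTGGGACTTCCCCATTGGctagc
Distances here are from the RefSeq start, which can differ from the gene start of the GRCm38 annotation. In Hspa5 the match lay from 65 to 47 bases before the RefSeq start, and within the annotated gene, which begins further upstream. In Calr, Creld2, Derl3 and the proximal Hsp90b1 match the element ran on the opposite strand, so it reads CGTGG before ATTGG.

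The shorter ERSE-II (ATTGG, 1 base of any kind, then CCACG, on either strand) was found in 1 member, Herpud1, and in 10 of 32851 promoters (0.0304%). The C/EBP-ATF response element bound by Atf4 (CARE, searched as TGATGNAA on either strand) was found in Asns, Chac1 and Herpud1, 3 of 29 members (10.3%), and in 1134 promoters (3.45%). The core of the unfolded protein response element (UPRE, TGACGTGG on either strand) was found in 0 members and in 185 promoters (0.563%). The Asns match, like that of Hspa5, lay before the RefSeq start but within the annotated gene, which begins further upstream. The CARE matches of the Atf4-arm genes are shown with the same 5 flanking bases and capitals.
Asns (chr6:7693220-7693237, - strand): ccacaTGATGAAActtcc
Chac1 (chr2:119351044-119351061, + strand): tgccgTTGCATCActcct
Herpud1 carried both kinds of match, so its 250 bases upstream of the RefSeq start are printed whole, with the CARE match (112 to 105 bases before the start, opposite strand) and then the ERSE-II match (52 to 42 bases before the start) in capitals. Its last bases spell a full ERSE up to the final letter, where the 250-base window ends. Whether that ERSE is complete could not be read, and Herpud1 is counted here as having no ERSE match.
Herpud1 (chr8:94386179-94386428, + strand): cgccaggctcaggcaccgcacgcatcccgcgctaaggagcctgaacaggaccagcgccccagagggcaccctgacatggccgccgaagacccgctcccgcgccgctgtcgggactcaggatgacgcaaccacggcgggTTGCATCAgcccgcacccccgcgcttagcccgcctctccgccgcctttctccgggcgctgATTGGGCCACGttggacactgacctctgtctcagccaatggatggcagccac
None of these matches is evidence of binding in these cells. In Y541S the giredestrant ratio had a median of -0.33 over the 9 counted members with an ERSE match and of -0.67 over the 19 without one. In WT the medians were -1.10 over 8 and -1.24 over 19. The ranges overlapped in both genotypes, in WT from -1.47 to -0.74 with a match and from -2.69 to 0.24 without one.

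Of the 15 folding genes 8 were lower in Y541S giredestrant cells by more than 1.5-fold, with a median relative log2 of -0.67. In WT all 15 were, with a median of -1.34, beside 24.4% of all genes lower in Y541S and 22.1% in WT. Without the median-gene shift Pdia3, Creld2, Dnajb11 and Dnajc3 fell short of 1.5-fold in WT. In Y541S only Pdia6, Sdf2l1, Manf and Dnajb9 passed it without the shift. Summed over the group, levels were 3283 CPM in Y541S giredestrant, 4120.2 CPM in Y541S vehicle, 2348 CPM in WT giredestrant and 4215 CPM in WT vehicle cells. The WT giredestrant sum was thus the lowest, the vehicle sums were close to each other, and Y541S giredestrant lay between.

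Hspa5 (chr2:34771970-34777547, + strand, as the GRCm38 annotation has the gene) encodes BiP, the Hsp70-type chaperone of the ER lumen and the protein that holds the 3 sensors inactive. Its level was 566 CPM (554 to 578) in Y541S giredestrant, 562 CPM (556 to 568) in Y541S vehicle, 360.4 CPM (354 to 367) in WT giredestrant and 626 CPM (614 to 637) in WT vehicle cells. The other libraries were close together and WT giredestrant was low. The relative log2 of giredestrant over vehicle was -0.33 (-0.37 to -0.30) in Y541S and -1.24 (-1.27 to -1.20) in WT, which is 2.36-fold lower. Hsp90b1, the ER form of Hsp90, had 449 CPM in Y541S giredestrant, 520.2 CPM in Y541S vehicle, 322 CPM in WT giredestrant and 529 CPM in WT vehicle cells, with relative ratios of -0.56 (-0.59 to -0.52) in Y541S and -1.16 (-1.19 to -1.12) in WT. Again WT giredestrant was lowest, and here Y541S giredestrant also lay below both vehicle libraries.

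The lectin chaperones Calr and Canx bind glycoproteins, Calr in the lumen and Canx in the membrane. Calr had 410.3 CPM in Y541S giredestrant, 613 CPM in Y541S vehicle, 278 CPM in WT giredestrant and 557 CPM in WT vehicle cells. Both giredestrant libraries lay below both vehicle libraries, with relative ratios of -0.92 (-0.96 to -0.89) in Y541S and -1.44 (-1.48 to -1.40) in WT. Canx had 295 CPM in Y541S giredestrant, 254 CPM in Y541S vehicle, 155 CPM in WT giredestrant and 234 CPM in WT vehicle cells, so Y541S giredestrant was the highest library and WT giredestrant the lowest. Its relative ratio was -0.13 (-0.18 to -0.08) in Y541S and -1.04 (-1.09 to -0.98) in WT.

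The disulfide isomerases showed both patterns. Pdia4 had 149.8 CPM in Y541S giredestrant, 133 CPM in Y541S vehicle, 61.2 CPM in WT giredestrant and 133 CPM in WT vehicle cells. WT giredestrant lay below the other 3 libraries, at 2.95-fold lower than WT vehicle relative to the median gene. Pdia6, in contrast, had 252 CPM in Y541S giredestrant, 402 CPM in Y541S vehicle, 205 CPM in WT giredestrant and 419 CPM in WT vehicle cells, and both giredestrant libraries were low, with relative ratios of -1.02 (-1.07 to -0.97) in Y541S and -1.47 (-1.52 to -1.42) in WT. P4hb, which also serves as a subunit of prolyl 4-hydroxylase, had ratios of -0.67 in Y541S and -1.34 in WT. Pdia3, the isomerase that works with Calr and Canx, had -0.67 in Y541S and -0.91 in WT, the smallest WT change of the 4.

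Of the genes whose proteins work with BiP, Dnajb9 (ERdj4) had the furthest WT ratio of all 32 members. Its level was 48.6 CPM (45.2 to 52.1) in Y541S giredestrant, 75.0 CPM (72.7 to 77.3) in Y541S vehicle, 19.6 CPM (18.2 to 21.1) in WT giredestrant and 93.2 CPM (88.9 to 97.7) in WT vehicle cells. WT giredestrant was far below the rest, 6.46-fold lower than WT vehicle relative to the median gene at -2.69 (-2.82 to -2.56), and Y541S giredestrant lay between it and the vehicle libraries at -0.97 (-1.08 to -0.86). Sdf2l1, a partner in a BiP complex, had 31.1 CPM in Y541S giredestrant, 70.2 CPM in Y541S vehicle, 30.1 CPM in WT giredestrant and 92.5 CPM in WT vehicle cells. Both giredestrant libraries were low and nearly equal, with relative ratios of -1.52 (-1.66 to -1.38) in Y541S and -2.06 (-2.17 to -1.95) in WT. Manf, an ER-resident factor that binds BiP and can be secreted, had 172 CPM in Y541S giredestrant, 371 CPM in Y541S vehicle, 138 CPM in WT giredestrant and 367 CPM in WT vehicle cells, the same arrangement, with -1.45 (-1.51 to -1.40) in Y541S and -1.85 (-1.90 to -1.80) in WT. Manf shares exon sequence with Rbm15b on the same strand in the annotation, so its counts may be split with that gene.

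Hyou1 (GRP170), which exchanges the nucleotide of BiP, had 42.0 CPM in Y541S giredestrant, 35.0 CPM in Y541S vehicle, 18.1 CPM in WT giredestrant and 39.2 CPM in WT vehicle cells. Only the WT giredestrant library was low here, with relative ratios of -0.08 (-0.21 to 0.05) in Y541S and -1.55 (-1.71 to -1.40) in WT. Creld2, an ER protein with thioredoxin-like motifs, showed -0.29 in Y541S and -0.88 in WT. The co-chaperone Dnajb11 (ERdj3) showed -0.50 in Y541S and -0.98 in WT. Dnajc3 (p58IPK) had 179 CPM in Y541S giredestrant, 239 CPM in Y541S vehicle, 209 CPM in WT giredestrant and 286 CPM in WT vehicle cells, so Y541S giredestrant was the lowest of the 4 for this gene. The 5 folding genes Hspa5, Canx, Pdia4, Creld2 and Hyou1 had a higher CPM in Y541S giredestrant than in Y541S vehicle before the median-gene shift was taken off.

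The difference between the genotypes in the giredestrant ratio, Y541S minus WT, was above 0 for all 15 folding genes, with a median of 0.59, and all 15 counting intervals lay above 0. Over all counted members it was above 0 for 29 of 32, with a median of 0.56, and 27 intervals lay above 0 and 2 below. It was 1.72 (1.55 to 1.89) for Dnajb9, 1.47 (1.27 to 1.67) for Hyou1, 1.39 (1.28 to 1.49) for Pdia4 and 0.90 (0.85 to 0.95) for Hspa5, against 0.24 (0.18 to 0.30) for Pdia3 and 0.13 (0.05 to 0.21) for Dnajc3. These intervals hold counting error only, and no replicate library stands behind either genotype. Another scaling moves all 32 differences by the same amount. TMM scaling lowers them, with factors of 1.24 in Y541S giredestrant, 0.886 in Y541S vehicle, 1.08 in WT giredestrant and 0.843 in WT vehicle. Small differences, such as those of Dnajc3 and Pdia3, therefore depend on the median-gene shift, and so do the counts above 0. The same difference was not formed over all genes, so these counts have no background share beside them.

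Degradation genes were lower in Y541S giredestrant for 4 of 7 counted members, with a median relative log2 of -0.61, and in WT giredestrant for 5 of 6, with a median of -0.78. Over all genes 24.4% were lower in Y541S and 22.1% in WT. Edem1, a mannosidase-like protein that sends misfolded glycoproteins to degradation, had 48.5 CPM in Y541S giredestrant, 74.2 CPM in Y541S vehicle, 30.6 CPM in WT giredestrant and 108 CPM in WT vehicle cells. Its order was that of Dnajb9, with WT giredestrant lowest and WT vehicle highest, and its relative ratios were -0.96 (-1.07 to -0.85) in Y541S and -2.26 (-2.36 to -2.15) in WT. Herpud1, a scaffold of the Syvn1 ubiquitin ligase complex, had 27.6 CPM in Y541S giredestrant, 37.7 CPM in Y541S vehicle, 37.5 CPM in WT giredestrant and 79.0 CPM in WT vehicle cells. WT vehicle stood apart as the high library and Y541S giredestrant was the lowest, with ratios of -0.79 (-0.94 to -0.64) in Y541S and -1.51 (-1.62 to -1.41) in WT, and of -1.20 (-1.29 to -1.10) for Y541S over WT under vehicle.

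Sel1l, the adaptor of the Syvn1 complex, went the other way in CPM, with 75.6 CPM in Y541S giredestrant, 50.7 CPM in Y541S vehicle, 84.6 CPM in WT giredestrant and 52.7 CPM in WT vehicle cells. Both giredestrant libraries were above both vehicle libraries, but relative to the median gene the ratios were 0.23 (0.14 to 0.33) in Y541S and 0.24 (0.14 to 0.35) in WT, short of 1.5-fold. Syvn1 (HRD1), the ubiquitin ligase itself, had 19.2 CPM in Y541S giredestrant, 16.4 CPM in Y541S vehicle, 11.2 CPM in WT giredestrant and 13.7 CPM in WT vehicle cells, with ratios of -0.12 (-0.31 to 0.07) in Y541S and -0.74 (-0.97 to -0.51) in WT. In cells thinned to 2000 UMIs the WT value of Syvn1 was 0.02. Of the derlins, channel-forming proteins of retrotranslocation, Derl2 had 22.7 CPM in Y541S giredestrant, 43.0 CPM in Y541S vehicle, 38.5 CPM in WT giredestrant and 48.4 CPM in WT vehicle cells, and Derl1 had ratios of -0.61 in Y541S and -0.80 in WT. Derl2 was the member whose Y541S ratio (-1.26) lay furthest below its WT ratio (-0.77). Derl3 gave only 6 UMIs in Y541S giredestrant, 19 UMIs in Y541S vehicle, 6 UMIs in WT giredestrant and 12 UMIs in WT vehicle.

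Of the 3 translocation genes 2 were lower in Y541S giredestrant, with a median of -1.17, and all 3 in WT giredestrant, with a median of -1.58. The shares of all genes lower were 24.4% in Y541S and 22.1% in WT. Sec61b, a subunit of the protein channel into the ER, had 345 CPM in Y541S giredestrant, 614 CPM in Y541S vehicle, 278 CPM in WT giredestrant and 617 CPM in WT vehicle cells. Ssr2, of the translocon-associated protein complex, had 179 CPM in Y541S giredestrant, 333 CPM in Y541S vehicle, 145 CPM in WT giredestrant and 258 CPM in WT vehicle cells, and both genes were low in both giredestrant libraries. Ssr1, another subunit of that complex, had 82.5 CPM in Y541S giredestrant, 74.0 CPM in Y541S vehicle, 39.0 CPM in WT giredestrant and 86.0 CPM in WT vehicle cells, so it was low in WT giredestrant alone, with relative ratios of -0.19 (-0.28 to -0.10) in Y541S and -1.58 (-1.69 to -1.48) in WT. The genotype difference of the giredestrant ratio was 1.40 (1.26 to 1.53) for Ssr1 and 0.03 (-0.05 to 0.11) for Ssr2.

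Of the sensors and Xbp1, 0 of 4 were lower past 1.5-fold in Y541S giredestrant and 3 of 4 in WT giredestrant (Ern1, Eif2ak3 and Xbp1), with medians of -0.13 in Y541S and -0.77 in WT. All genes gave 24.4% lower in Y541S and 22.1% in WT. Without the median-gene shift only Ern1 of these passed 1.5-fold in WT, so the WT calls of Eif2ak3 and Xbp1 depend on that shift. Ern1, the kinase and RNase that splices Xbp1 mRNA, had 234 CPM (227 to 242) in Y541S giredestrant, 185 CPM (182 to 189) in Y541S vehicle, 93.4 CPM (90.2 to 96.6) in WT giredestrant and 211 CPM (205 to 218) in WT vehicle cells. WT giredestrant was the low library and Y541S giredestrant the highest, with relative ratios of -0.003 (-0.06 to 0.05) in Y541S and -1.62 (-1.69 to -1.55) in WT and a genotype difference of 1.62 (1.53 to 1.70). Eif2ak3, the kinase PERK, had 31.8 CPM in Y541S giredestrant, 29.7 CPM in Y541S vehicle, 18.7 CPM in WT giredestrant and 25.1 CPM in WT vehicle cells. Xbp1, the transcription factor downstream of Ern1, had 142 CPM in Y541S giredestrant, 139.7 CPM in Y541S vehicle, 115 CPM in WT giredestrant and 135 CPM in WT vehicle cells, a narrow range, and its 3′ counts do not separate spliced from unspliced mRNA. Atf6, the sensor that is cleaved in the Golgi, had 163 CPM in Y541S giredestrant, 127 CPM in Y541S vehicle, 159 CPM in WT giredestrant and 144 CPM in WT vehicle cells, with ratios of 0.02 in Y541S and -0.29 in WT.

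The Atf4 arm did not move as a block in Y541S, where Asns and Trib3 were lower past 1.5-fold while Atf4 and Ddit3 had ratios above 0. In WT giredestrant 3 of 4 counted members were lower (Atf4, Trib3 and Asns) and 0 higher, with a median of -0.87. The shares of all genes lower were 24.4% in Y541S and 22.1% in WT. Atf4 itself, the transcription factor of the integrated stress response, had 181 CPM (175 to 188) in Y541S giredestrant, 113 CPM (110.0 to 116) in Y541S vehicle, 71.4 CPM (68.7 to 74.3) in WT giredestrant and 102 CPM (97.2 to 106) in WT vehicle cells. It was high in Y541S giredestrant and low in WT giredestrant, with relative ratios of 0.34 (0.28 to 0.40) in Y541S, short of 1.5-fold, and -0.95 (-1.04 to -0.86) in WT, and with Y541S over WT under giredestrant at 1.33 (1.25 to 1.41). Ddit3 (CHOP), a pro-death transcription factor downstream of Atf4, had 22.3 CPM in Y541S giredestrant, 12.0 CPM in Y541S vehicle, 14.0 CPM in WT giredestrant and 10.5 CPM in WT vehicle cells, highest in Y541S giredestrant, at ratios of 0.56 (0.37 to 0.74) in Y541S and -0.03 (-0.27 to 0.21) in WT. Without the median-gene shift Atf4 and Ddit3 both passed 1.5-fold upward in Y541S, and Atf4 fell short of 1.5-fold in WT. Ddit3 overlaps another gene of the same symbol on its strand and Mars on the opposite strand in the annotation.

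Asns, asparagine synthetase, had the opposite order with 12.0 CPM in Y541S giredestrant, 20.8 CPM in Y541S vehicle, 20.3 CPM in WT giredestrant and 26.0 CPM in WT vehicle cells. It was lowest in Y541S giredestrant, with relative ratios of -1.13 (-1.36 to -0.91) in Y541S and -0.79 (-0.96 to -0.62) in WT. The WT call of Asns also depends on the median-gene shift. Trib3, a pseudokinase that Atf4 and Ddit3 are known to raise, had 2.23 CPM in Y541S giredestrant, 3.58 CPM in Y541S vehicle, 2.70 CPM in WT giredestrant and 4.70 CPM in WT vehicle cells, and both giredestrant libraries were low at -1.02 (-1.58 to -0.50) in Y541S and -1.24 (-1.67 to -0.81) in WT. Chac1, which breaks down glutathione, gave 2 UMIs in Y541S giredestrant, 11 UMIs in Y541S vehicle, 6 UMIs in WT giredestrant and 5 UMIs in WT vehicle. Summed, the arm stood at 218 CPM in Y541S giredestrant, 149 CPM in Y541S vehicle, 109 CPM in WT giredestrant and 143 CPM in WT vehicle cells, and 181 of the 218 CPM in Y541S giredestrant were Atf4.

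**Figure D2:**
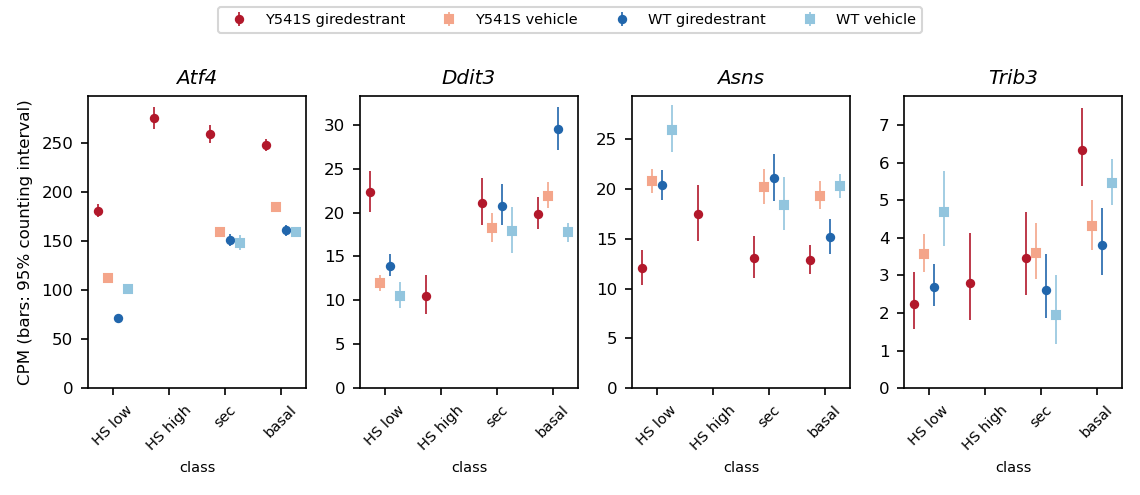
Levels of Atf4, Ddit3, Asns and Trib3 (CPM, 1 panel per gene with its own axis from 0) in Krt14-low (HS low) and Krt14-high (HS high, Y541S giredestrant library only) hormone-sensing cells, secretory cells (sec) and basal cells of the 4 libraries, with 95% counting intervals. In Krt14-low hormone-sensing cells Atf4 is highest in Y541S giredestrant (181 CPM) and lowest in WT giredestrant (71.4 CPM), while Asns is lowest in Y541S giredestrant (12.0 CPM).

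The same arrangement was seen cell by cell. The summed folding genes had a median of 27.8 UMIs per 10,000 in Krt14-low hormone-sensing cells of Y541S giredestrant (quartiles 17.6 and 40.5), 37.8 in Y541S vehicle (28.5 and 49.1), 21.5 in WT giredestrant (16.4 and 27.1) and 38.3 in WT vehicle (29.7 and 49.2). The upper quartile of WT giredestrant cells lay below the lower quartile of WT vehicle cells. In Y541S giredestrant the quartiles were wider and overlapped those of the other 3 libraries. With every cell thinned to 2000 UMIs, the variance of the folding sum over its mean was 2.75 in Y541S giredestrant, 2.23 in Y541S vehicle, 2.08 in WT giredestrant and 2.45 in WT vehicle cells.

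**Figure D3:**
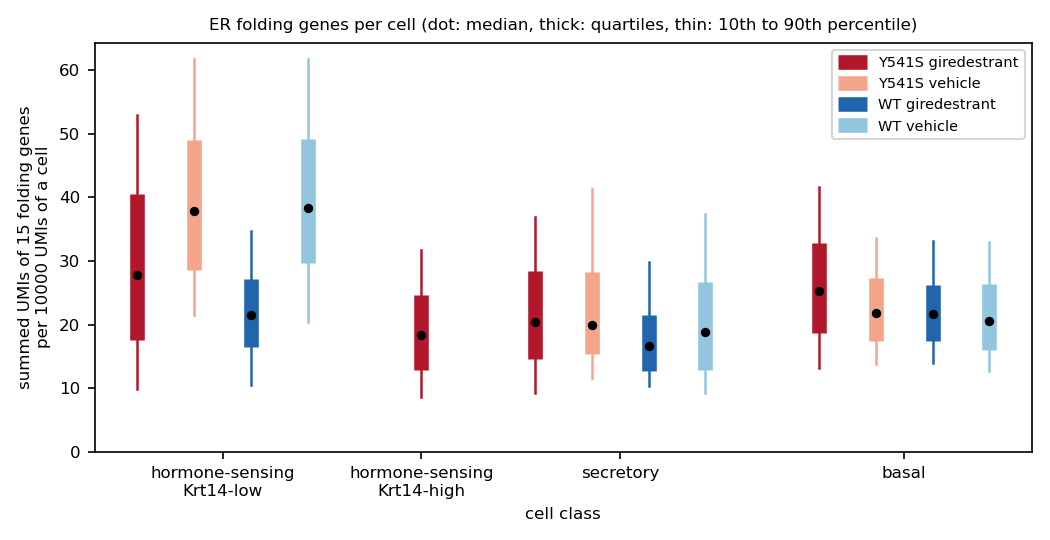
Summed folding-gene UMIs per 10,000 UMIs of a cell, by class and library (dot, median; thick line, quartiles; thin line, 10th to 90th percentile). In Krt14-low hormone-sensing cells the medians are 27.8 in Y541S giredestrant, 37.8 in Y541S vehicle, 21.5 in WT giredestrant and 38.3 in WT vehicle, while in secretory and basal cells they lie between 16.6 and 25.2.

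Shares of cells with a UMI were compared after thinning to 2000 UMIs, with 1427 Krt14-low hormone-sensing cells in Y541S giredestrant, 2047 in Y541S vehicle, 1025 in WT giredestrant and 622 in WT vehicle. Dnajb9 was seen in 7.92% (6.57 to 9.44) of cells in Y541S giredestrant, 14.3% (12.8 to 15.9) in Y541S vehicle, 3.12% (2.15 to 4.38) in WT giredestrant and 16.6% (13.7 to 19.7) in WT vehicle. The unthinned shares were 30.6% in Y541S giredestrant, 72.7% in Y541S vehicle, 38.8% in WT giredestrant and 80.7% in WT vehicle, which also follow the depth of each library. Atf4 was seen in 31.4% (29.0 to 33.9) of thinned cells in Y541S giredestrant, 20.6% (18.9 to 22.4) in Y541S vehicle, 11.7% (9.80 to 13.8) in WT giredestrant and 17.4% (14.5 to 20.6) in WT vehicle, where the unthinned shares were 73.2% in Y541S giredestrant, 88.2% in Y541S vehicle, 77.0% in WT giredestrant and 88.5% in WT vehicle. The thinned order is that of the CPM. No class here is known to lack these genes, so the share that free RNA gives was not measured.

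Outside the hormone-sensing cells fewer members passed 1.5-fold with giredestrant. In secretory cells, the milk-lineage luminal cells, 5 of 33 members were lower with giredestrant in Y541S (Pdia6, Sdf2l1, Manf, Derl2 and Asns) and 4 higher (Hyou1, Syvn1, Eif2ak3 and Atf4), with a median of 0.03, beside 18.4% and 16.4% of all genes. With TMM scaling 6 were lower and 3 higher. Sdf2l1 had the furthest ratio at -1.57 (-1.93 to -1.22), and Eif2ak3 was highest relative to vehicle at 1.19 (1.03 to 1.35). In WT secretory cells 2 of 33 (Hyou1 and Derl3) were lower and 0 higher with giredestrant, with a median of -0.03, beside 10.7% of all genes lower and 9.48% higher. Derl3 lay between 1.34 and 2.96 CPM in the secretory sums, so its call rests on few UMIs. The folding sum was 2416 CPM in Y541S giredestrant, 2465 CPM in Y541S vehicle, 1996 CPM in WT giredestrant and 2311 CPM in WT vehicle cells. Hspa5 had 515 CPM in Y541S giredestrant, 501 CPM in Y541S vehicle, 462 CPM in WT giredestrant and 515 CPM in WT vehicle cells there, a range of 1.12-fold from lowest to highest. Between the genotypes 2 members were higher in Y541S under vehicle and 0 lower, beside 6.65% and 11.5% of all genes, and 9 were higher under giredestrant and 2 lower, beside 16.8% and 18.2%.

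In basal cells, the contractile outer layer, 2 of 33 members were higher in Y541S giredestrant (Hyou1 and Eif2ak3) and 4 lower (Sdf2l1, Derl2, Sec61b and Asns), with a median of 0.04, beside 14.3% and 12.1% of all genes. In WT basal cells 2 were higher with giredestrant (Derl3 and Eif2ak3) and 2 lower (Xbp1 and Trib3), with a median of -0.05, beside 14.8% and 14.3%. The basal call of Derl3 also rests on few UMIs, at 0.31 to 0.73 CPM over the libraries. Without the median-gene shift the basal splits were 2 higher and 2 lower in Y541S and 4 higher and 0 lower in WT, and with TMM scaling the WT split was 1 higher and 3 lower. The folding sum was 2734 CPM in Y541S giredestrant, 2324 CPM in Y541S vehicle, 2379 CPM in WT giredestrant and 2290.5 CPM in WT vehicle cells, highest in Y541S giredestrant. Under vehicle 1 member was higher in Y541S than in WT basal cells and 0 lower, beside 7.41% and 12% of all genes, and under giredestrant 7 were higher and 2 lower, beside 16.5% in each direction, or 6 and 3 without the shift. Sdf2l1, Derl2 and Asns were thus lower with giredestrant in all 3 Y541S classes, with Asns at -1.13 in hormone-sensing, -0.64 in secretory and -0.66 in basal cells.

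Set beside the hormone-sensing cells, the genotype difference of the folding-gene ratios had a median of 0.33 in secretory and 0.37 in basal cells, with 11 of 15 genes above 0 in each, against 0.59 and 15 of 15. No share over all genes was formed for these counts. TMM scaling lowers the hormone-sensing median more than the secretory and basal ones. The gap between the classes in these medians and counts therefore depends on the scaling. For Hspa5 the difference was 0.25 (0.18 to 0.32) in secretory and 0.15 (0.11 to 0.20) in basal cells, against 0.90 (0.85 to 0.95) in hormone-sensing cells.

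**Figure D4:**
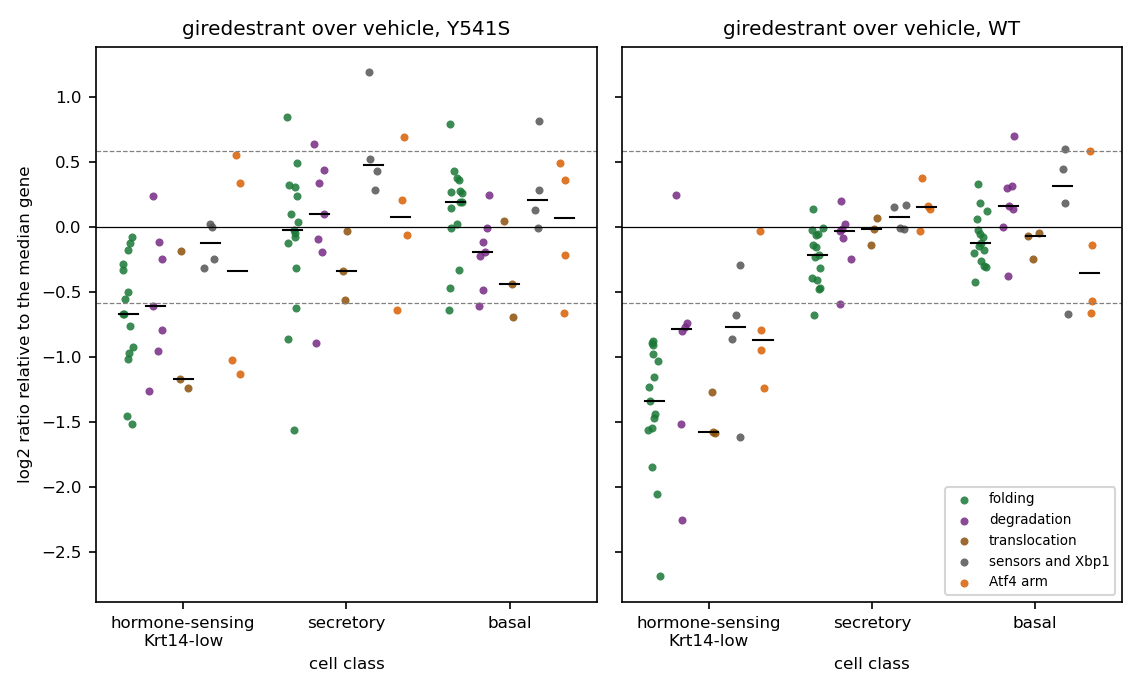
Relative log2 of giredestrant over vehicle for each counted member by class and arm (points), with the median of the arm as a bar and 1.5-fold as dashed lines, Y541S left and WT right. In WT the folding points of Krt14-low hormone-sensing cells all lie past the lower dashed line (median -1.34), while in secretory cells 14 of the 15 lie below 0 (median -0.21, with Hyou1 past the dashed line) and in basal cells 11 of the 15 (median -0.12).

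The Krt14-high hormone-sensing cells of Y541S giredestrant, compared with the Krt14-low cells of the same library, had lower chaperone genes and higher Atf4. Here 12 of 32 members passed 1.5-fold downward and 3 upward, and the median relative log2 was -0.47, beside 20.2% of all genes lower and 20.9% higher, or 11.7% and 19.1% of those at 20 or more CPM. The median gene itself had moved by -0.26, and without that shift 21 were lower and 1 higher. All 15 folding genes had a ratio below 0, with a median of -0.50, and 6 passed 1.5-fold (Pdia4, Pdia6, Sdf2l1, Manf, Dnajb9 and Hyou1). Sdf2l1 was the furthest at -1.26 (-1.59 to -0.94).

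Atf4 had 276 CPM in the Krt14-high cells, against 181 CPM in the Krt14-low cells, with a relative log2 of 0.87 (0.79 to 0.94). Asns had 17.4 CPM against 12.0 CPM, at 0.80 (0.48 to 1.11), and Trib3 had 2.80 CPM against 2.23 CPM, at 0.59 (-0.21 to 1.36), an interval that includes 0. Ddit3 was lower, with 10.5 CPM in the Krt14-high cells and 22.3 CPM in the Krt14-low cells, at -0.83 (-1.17 to -0.49). Eif2ak3 (-1.11), Sel1l (-0.85), Derl2 (-0.75), Sec61b (-0.61) and Ssr2 (-0.88) made up the other lower members.

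Markers that neither the class rules nor the Krt14 split used were read beside these values. The 5 basal ones (Krt5, Krt17, Oxtr, Trp63 and Cnn1) summed to 669 CPM in the Krt14-high cells, against 121 CPM in the Krt14-low cells and 3617.5 CPM in basal cells of the library. The 5 hormone-sensing ones summed to 1583.5 CPM in the Krt14-high cells, against 4363 CPM in the Krt14-low cells and 5440 CPM in secretory cells of the library. The median score of the basal rule was 0 in the Krt14-high cells. In basal cells of the same library the folding sum was 2734 CPM and Atf4 had 248 CPM, so the folding sum of the Krt14-high cells (2076 CPM) lay below that of both the Krt14-low and the basal cells. The part of basal transcripts and of doublets in these values was not tested. Cells within 20% of the Krt14 split were 3.55% of the hormone-sensing cells of this library.

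Along steps of Krt14 the folding sum was 3367 CPM in 954 cells with no Krt14 UMI, 3178 CPM in 545 cells under 3 per 10,000, 2202 CPM in 348 cells from 3 to 10, 2024 CPM in 393 cells from 10 to 30 and 1980 CPM in 239 cells at 30 or more. The widest gap between neighbouring steps lay at the split. Manf stood at 176, 167, 102, 86.9 and 81.8 CPM over the same steps, and Hspa5 at 582, 546, 445, 448 and 468 CPM. Atf4 stood at 176, 188, 282, 271 and 274 CPM, and Ddit3 at 23.2, 21.2, 12.9, 10.3 and 7.27 CPM. For both Atf4 and Ddit3 the counting intervals of neighbouring steps overlapped everywhere except at the split, where Atf4 was higher and Ddit3 lower in the cells with more Krt14. These steps were chosen after the data had been seen.

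**Figure D5:**
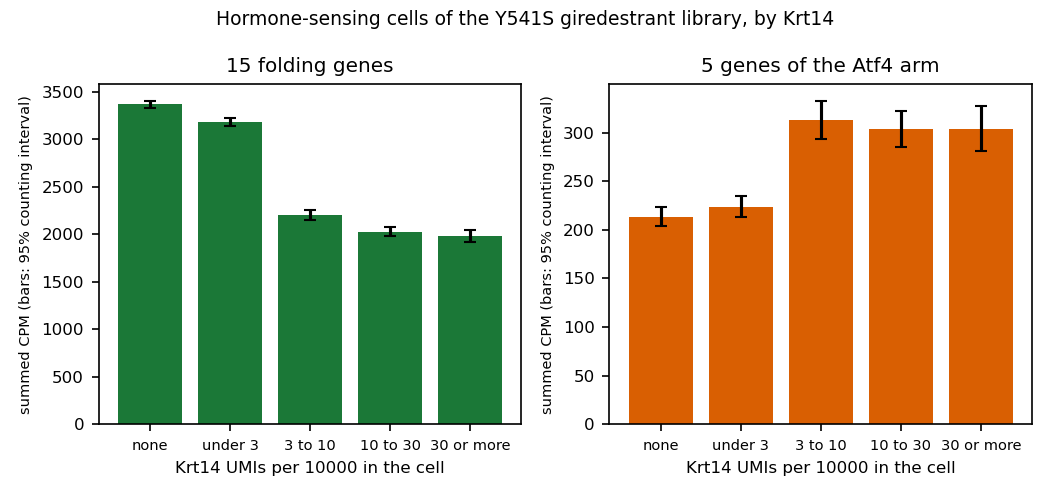
Summed folding genes and summed Atf4-arm genes (CPM, with 95% counting intervals) in hormone-sensing cells of the Y541S giredestrant library by step of Krt14 UMIs per 10,000. The folding sum goes down along the steps, 3367 CPM with no Krt14 UMI and 1980 CPM at 30 or more, and the Atf4-arm sum is higher from the step of 3 to 10 (313 CPM) than in cells with no Krt14 UMI (213 CPM).

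Genes of the same pathways outside the 34 were read from listed sets in Krt14-low hormone-sensing cells, where 24.4% of all genes were lower in Y541S giredestrant and 22.1% in WT giredestrant, or 27.9% and 23.1% of those at 20 or more CPM. Of 27 other ER folding, glycosylation and translocation genes, 16 were lower in Y541S giredestrant, with a median of -0.80, and 24 were lower in WT giredestrant and 0 higher, with a median of -1.02. Fkbp11, a prolyl isomerase of the ER, had 23.1 CPM in WT giredestrant against 255 CPM in WT vehicle, a relative log2 of -3.91. Sec61g, another channel subunit, had 13.7 CPM in WT giredestrant against 80.5 CPM in WT vehicle, at -2.99. Of 24 counted transport and degradation genes 11 were lower and 1 higher in Y541S giredestrant, and 16 lower and 1 higher in WT giredestrant, with medians of -0.51 in Y541S and -0.92 in WT.

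Other targets of Atf4 were counted in the same way. In Y541S giredestrant 11 of 28 were lower and 7 higher, with a median of -0.10, beside 24.4% and 23% of all genes. In WT giredestrant 14 of 27 were lower and 0 higher, with a median of -0.59, beside 22.1% and 22.2%. The stress cytokine Gdf15 had 0.787 CPM in WT giredestrant against 29.8 CPM in WT vehicle, at -5.68. In Y541S, Sesn2, a sensor of leucine, was higher with giredestrant at 1.11 and Nupr1, a stress-induced nuclear protein, lower at -2.70. In the Krt14-high cells 10 of 28 such targets were higher and 2 lower than in the Krt14-low cells, with a median of 0.36, beside 20.9% and 20.2% of all genes and 19.1% and 11.7% of those at 20 or more CPM. The furthest upward were the amino acid transporters Slc7a1 (181 CPM in Krt14-high against 57.6 CPM in Krt14-low cells, 1.92) and Slc7a11 (1.68).

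Immediate early and heat shock genes, which are known to respond to tissue handling, were read as well. In Krt14-low hormone-sensing cells the 12 immediate early genes summed to 5636 CPM in Y541S giredestrant, 7122 CPM in Y541S vehicle, 10719 CPM in WT giredestrant and 7312 CPM in WT vehicle. The 12 cytosolic heat shock genes summed to 5140 CPM in Y541S giredestrant, 7134 CPM in Y541S vehicle, 6130 CPM in WT giredestrant and 6713 CPM in WT vehicle, with 8 lower in Y541S and 7 lower in WT giredestrant relative to the median gene. The shares of all genes lower were 24.4% in Y541S and 22.1% in WT giredestrant. The immediate early sum was thus highest in the library where the chaperone genes were lowest. It was also highest in WT giredestrant in secretory cells (10507 CPM, against 9111 CPM in WT vehicle) and basal cells (9090.5 CPM against 5863 CPM). Folding sums with giredestrant and vehicle in WT were 1996 and 2311 CPM in secretory, and 2379 and 2290.5 CPM in basal cells. The part of the immediate early genes in the result was not tested.

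Of 3698 genes with a mean of 50 or more CPM over 16 sums of class and library, the 5 whose log2 level followed the folding sum most closely were Surf4 (Pearson's r 0.973), Tceal9 (0.903), Tcn2 (0.899), Tinagl1 (0.897) and Ndufa1 (0.895). Over the 13 sums of 50 or more cells Surf4 was again the closest, at 0.974, and Tcn2 and Ndufa1 stayed among the 5, while Lamp1 and Ndfip1 took the places of Tceal9 and Tinagl1. The sums share libraries and depth, so these values only describe the 4 libraries.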

How the data were processed

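The values the authors deposited are raw UMI counts in a matrix of genes by barcodes, made with Cell Ranger 6.0.1 per the file headers and on GRCm38 per the submitters' processing notes. The annotation release and the handling of intronic reads are not given in the sources used here. The deposited barcode and gene lists hold other text, the names of the matrix columns and lines.

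A barcode was kept at a minimum of 1000 UMIs and 500 genes and a mitochondrial share up to 15%: 8622 of 10469 in Y541S giredestrant, 7217 of 7812 in Y541S vehicle, 3029 of 3667 in WT giredestrant and 7082 of 8114 in WT vehicle, with 70781982, 132660456, 84215237 and 98223195 UMIs. UMIs were summed over the cells of a class and library, and cells meeting more than 1 class rule (1.45% to 5.18%) were left out. Doublets were otherwise kept. Scrublet's automatic threshold marked 0.184% of cells in WT vehicle, too few for a working call, so an alternative removed the highest-scoring 73 to 595 cells of a library. Levels are CPM with exact Poisson intervals, ratios carry exact conditional binomial intervals, and shares carry exact (Clopper-Pearson) intervals, all at 95%. A ratio is taken relative to the median gene with 20 or more UMIs, and 1.5-fold counts as higher or lower. Means over libraries, SDs and p-values were not formed, since each group has 1 library. The ratio code was tested on simulated data.

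The 34 members and the other lists were chosen with earlier results of these data known. All 34 members are named. From the other lists the genes furthest in each direction with 100 or more UMIs were eligible, up to 2 a direction, and the genes most like the folding sum were the 5 with the highest correlation at a mean of 50 or more CPM. Vimp, 1 of the 25 transport and degradation genes listed, was not matched by symbol. The Krt14 steps were chosen after the data had been seen. Promoter sequences are RefSeq's for GRCm38.p6, and gene coordinates and overlaps are from the GRCm38 reference annotation. Alternatives were the scaling (unshifted, TMM, median of genes at 20 or more CPM), thinning to 2000 UMIs, a filter of 3000 UMIs and 10% mitochondrial UMIs, doublet removal, other class rules and thresholds, equal weight per cell and other minimum counts. Tools were Python 3.11.15, NumPy 2.4.6, SciPy 1.17.1, pandas 2.3.3, Scanpy 1.11.5, edgeR 4.0.16 (TMM factors only) and matplotlib 3.10.9.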

Additional observations from a re-analysis of the deposited data

Results flagged for a closer look

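Hyou1, the nucleotide exchange factor of BiP, went opposite ways with giredestrant in the secretory cells of the 2 genotypes. Its level there was 24.8 CPM in Y541S giredestrant, 13.8 CPM in Y541S vehicle, 10.1 CPM in WT giredestrant and 15.5 CPM in WT vehicle cells. The relative log2 of giredestrant over vehicle was 0.85 (0.62 to 1.07) in Y541S and -0.68 (-1.01 to -0.34) in WT secretory cells. Each is 1 library against 1 library, and the difference was not tested.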

How the results depend on the processing

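Of 121 member ratios past 1.5-fold over all classes and comparisons, 95 stayed past it in the same direction without the median-gene shift, 111 with TMM scaling, 115 relative to genes at 20 or more CPM, 120 with the stricter cell filter, 120 without the highest doublet scores, 111 with cells of more than 1 class rule kept, 118 with doubled class thresholds, 118 with rules lacking Areg and Csn3, 111 with equal weight per cell and 117 with no filter on low counts. Of those that could be recomputed, 94 of 113 did after thinning, 59 of 62 with no Krt14 split and 76 of 81 at 20 or more CPM. The 1 called ratio that turned direction was Syvn1 in WT hormone-sensing cells, at 0.022 (relative log2) after thinning against -0.74. The causes of these changes were not tested. In Krt14-low hormone-sensing cells the number of members lower in Y541S giredestrant ran from 10 to 18 over all settings and in WT giredestrant from 18 to 31.

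Without the median-gene shift, members past 1.5-fold in WT Krt14-low hormone-sensing cells numbered 19 in place of 29, lower chaperone-arm members 8 in place of 14 in the Y541S pair and 18 in place of 10 in Krt14-high cells. Small counts moved most. For giredestrant against vehicle in WT secretory cells the count of 2 became 1 without the shift and with TMM, 4 after thinning and 0 at 20 or more CPM, and in WT basal cells the count of 4 became 2 at 20 or more CPM and with cells of more than 1 rule kept. In Y541S the count of 9 in secretory cells became 5 and that of 6 in basal cells became 1 at 20 or more CPM. For Y541S against WT under vehicle, the count of 2 in secretory cells became 1 after thinning and 0 at 20 or more CPM, and the count of 1 in basal cells became 2 with TMM, thinning, cells of more than 1 rule or equal weight per cell, 3 with no filter and 0 at 20 or more CPM. Under giredestrant the counts of 11 in secretory and 9 in basal cells became 6 and 4 at 20 or more CPM.

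No paired analysis was possible because each group has 1 library, and for the same reason no replicate was left out. Depth limits Chac1 and Derl3, whose levels lay under 1 CPM in Krt14-low hormone-sensing cells, and the Y541S giredestrant library, whose hormone-sensing cells were the shallowest. Genotype, treatment, animal and preparation cannot be told apart from the library.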
